A study of Oryza sativa Indica Group with 8 samples.

Results

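The 22-nt known microRNAs (miRNAs) with few copies in the genome were described here by where they lie. They were chosen by 2 properties in the authors' annotation of known rice miRNAs: an aligned length of 22 nt, and 1 to 9 loci, a locus being 1 alignment of the miRNA to the genome. The rule gave 36 of the 285 known identifiers, with 72 of the 1233 known loci. All 36 had a row in the authors' count table, as did all 285 known identifiers. A further 8 identifiers of 22 nt were left out because they had 10 or more loci. The member with the most loci had 7, and the identifier left out with the fewest, URS000043F8BA, had 13, so no 22-nt identifier lay close to the limit.

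The study sequenced small RNAs from panicles, the flowering part of the rice plant, in 8 libraries. These cover the genotypes Basmati370, KolaJoha, ThururBhog and IC463254, each at low and at rec nitrogen, with 1 library per genotype and level and the organism given as Oryza sativa, Indica group. The labels do not spell out rec. According to the design text, a japonica rice served as the reference. The names of the 8 columns in each count table match no label, so no count, depth or comparison of nitrogen levels or genotypes is reported, and the label of the tissue was not checked against expression.

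Plant miRNAs are cut from the stem of a folded precursor, by an enzyme that releases a duplex with 1 strand from each arm of the hairpin. Most plant miRNAs are 21 nt long. The 22-nt form is known for a further activity: when such a miRNA directs the cutting of a transcript, the transcript is often copied into double-stranded RNA and diced into phased secondary small RNAs. In rice and other grasses, 22-nt miRNAs of the miR2118 and miR2275 families set off this process in developing anthers. The files give RNAcentral identifiers and no miRNA names or sequences, so which members belong to these families was not analysed here. Positions are those of the authors' build, whose name is not given in the labels or headers. They count from 1, and genes at these positions were not analysed here.

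Of the 36 members, 22 had a single locus and 14 (38.9%) had more than 1. Of those 14, 5 members had 2 loci, 3 had 3, 3 had 4, 2 had 6 and 1 had 7. Copy number entered the rule, so this is a description. In the 21-nt identifiers held to the same limit of 1 to 9 loci, 39 of 152 (25.7%) had more than 1 locus. In the 24-nt ones it was 14 of 49 (28.6%). Over all known identifiers with 1 to 9 loci it was 73 of 266 (27.4%), and with no limit 92 of 285 (32.3%). The median was 1 locus in each of these 3 length classes. Every member aligned without a gap, as did all but 4 of the 285 known identifiers. On the plus strand lay 38 of the 72 member loci (52.8%), near the share of all known loci, 650 of 1233 (52.7%). With 1 to 9 loci it was 125 of 250 (50%) at 21 nt and 54 of 79 (68.4%) at 24 nt.

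**Figure D1:**
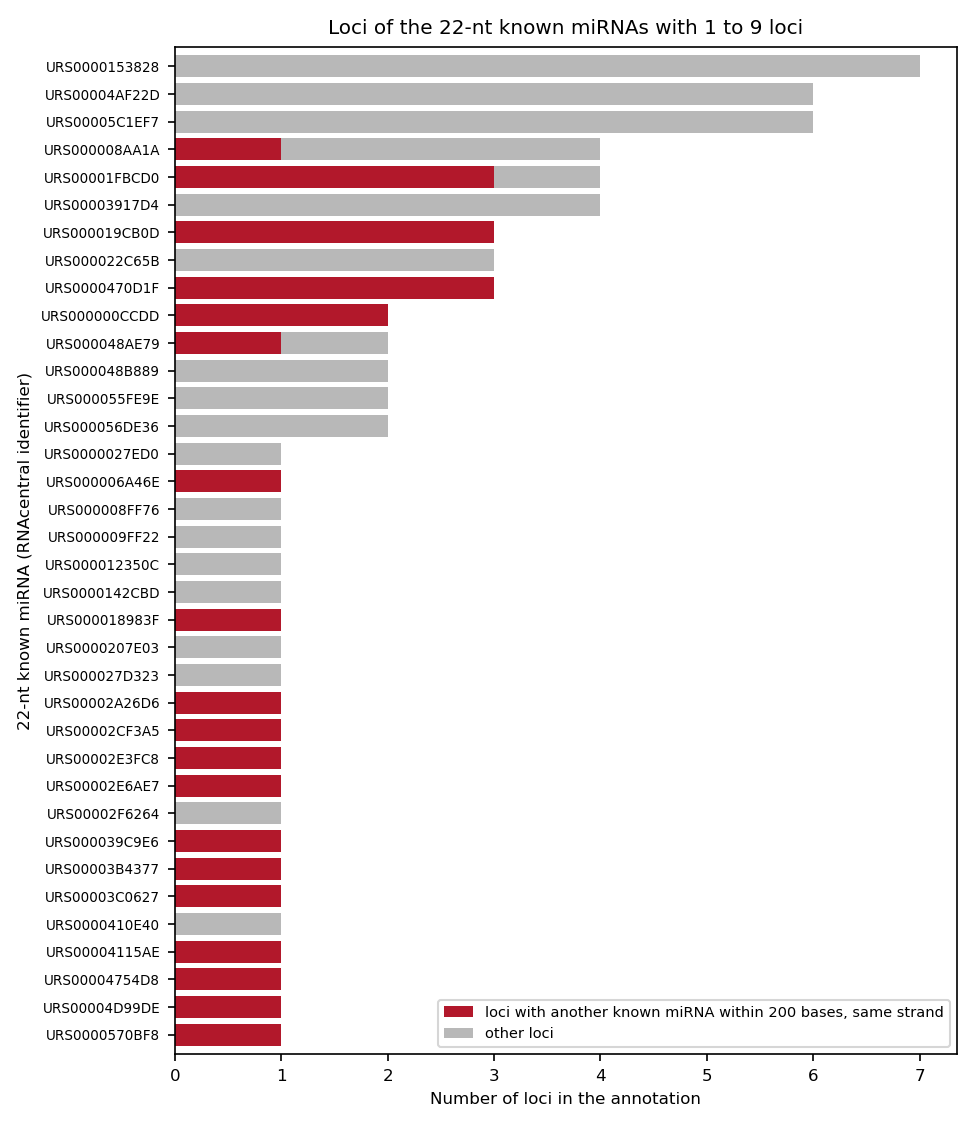
Number of loci of each of the 36 members (horizontal axis), split into loci that have another known miRNA within 200 bases on the same strand (red) and other loci (grey). The 3 members with the most loci, 7, 6 and 6, have no such neighbour at any locus, and URS000019CB0D and URS0000470D1F have one at all 3 of theirs.

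Known miRNAs close together on the same strand can be the arms of 1 hairpin or hairpins of 1 transcript. Such neighbours were defined as different identifiers with at most 200 bases between their nearest ends. By this definition 19 of the 36 members (52.8%) had a neighbour, at 26 of the 72 loci. The share was 81 of 152 (53.3%) among 21-nt identifiers with 1 to 9 loci and 12 of 49 (24.5%) among 24-nt ones. Over all 285 known identifiers it was 129 (45.3%). The 22-nt share was near that of the 21-nt class at this distance, and no test was made between these lists. Within 100 bases it was 13 of 36 (36.1%) for the members, 71 of 152 (46.7%) at 21 nt, 11 of 49 (22.4%) at 24 nt and 108 of 285 (37.9%) over all known identifiers. Among single-locus members 13 of 22 (59.1%) had a neighbour within 200 bases, and among members with several loci 6 of 14 (42.9%). Over all known identifiers these shares were 93 of 193 (48.2%) and 36 of 92 (39.1%). At 21 nt with 1 to 9 loci the order was reversed, with 59 of 113 (52.2%) and 22 of 39 (56.4%). At 24 nt they were 9 of 35 (25.7%) and 3 of 14 (21.4%).

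The 19 members formed 22 pairs that shared no base, and 2 that overlapped. In 16 of the 22 pairs the other miRNA was no member. Those 16 pairs held 13 members and 11 other identifiers, of which 7 were 21 nt long, 3 were 20 nt and 1 was 23 nt. The gap between the miRNAs ran from 1 to 140 bases with a median of 54, and the span from outer end to outer end from 44 to 182 bases. The member was the downstream (3′) miRNA in 11 of these pairs and the upstream (5′) miRNA in 5. The remaining 6 pairs joined 2 members.

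**Figure D2:**
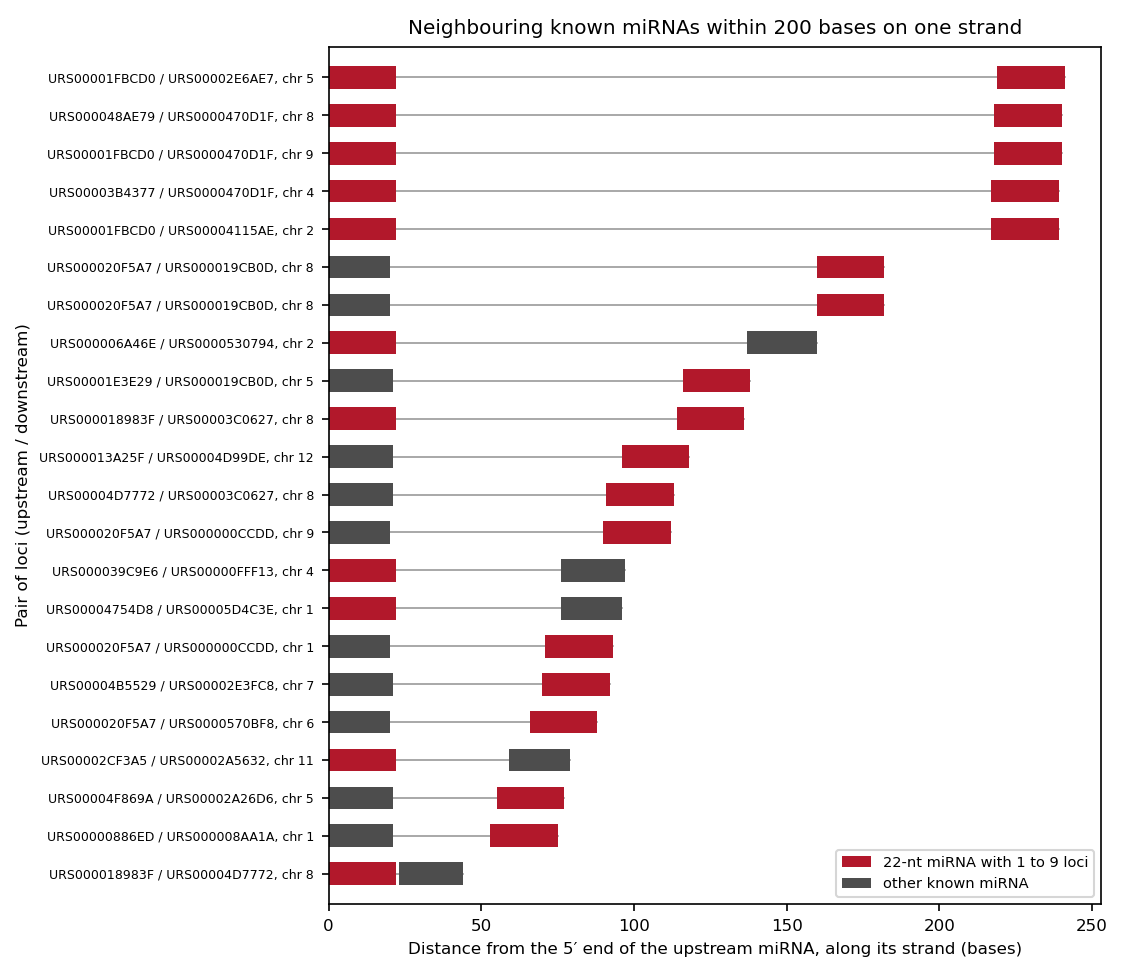
The 22 pairs of neighbouring known miRNAs that share no base, drawn to scale along the strand from the 5′ end of the upstream miRNA (horizontal axis, bases), with members in red and other known miRNAs in dark grey. The 5 pairs at the top, each of 2 members, span 239 to 241 bases, and the pair at the bottom has 1 base between its miRNAs.

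One arrangement joined 6 members in 5 pairs, on chromosomes 2, 4, 5, 8 and 9. It was picked out after the distances had been seen. Every pair consisted of 2 members with 195 to 197 bases between them. Over the whole annotation there were 84 same-strand pairs within 200 bases that shared no base. These 5 were the widest of the 84, and the next had a gap of 177 bases. The 84 end at the limit of 200 bases, so these 5 were widest only within it. A further 12 pairs of known miRNAs lay beyond that limit, up to 500 bases apart.

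The pair on chromosome 2 had URS00001FBCD0 at 20715979 to 20716000 and URS00004115AE at 20716196 to 20716217, both on the plus strand with 195 bases between them. On chromosome 5, URS00001FBCD0 at 18668414 to 18668435 was followed by URS00002E6AE7 at 18668633 to 18668654, on the plus strand after 197 bases. On chromosome 9, URS00001FBCD0 at 13532448 to 13532469 was followed by URS0000470D1F at 13532666 to 13532687, on the plus strand after 196 bases. URS00001FBCD0 thus stood upstream of a different identifier on each of these chromosomes.

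URS0000470D1F in turn was the downstream miRNA of 3 different identifiers. Besides chromosome 9, it followed URS00003B4377 on chromosome 4, where they lay on the plus strand at 6536571 to 6536592 and at 6536354 to 6536375, with 195 bases between them. On chromosome 8 it lay on the minus strand at 15132584 to 15132605, 196 bases downstream of URS000048AE79 at 15132802 to 15132823. The upstream places were therefore held by URS00001FBCD0, URS00003B4377 and URS000048AE79, and the downstream places by URS00004115AE, URS00002E6AE7 and URS0000470D1F. No identifier of the 6 took both places.

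These 6 members had 12 loci in all, and the 5 pairs took 10 of them. The others were single: URS00001FBCD0 at 14949513 to 14949534 on chromosome 6, plus strand, and URS000048AE79 at 27238262 to 27238283 on chromosome 6, minus strand. The first had its nearest known miRNA 844022 bases away and the second 57721 bases away.

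The same 6 members also held most of the contacts with predicted loci, which are places the authors list as new miRNA loci. Their start may be counted from 0 or from 1, so distances to them can be off by 1 base. No member overlapped a predicted locus. Within 10 kb there was one for 6 of the 36 members (16.7%), against 10 of 152 (6.58%) 21-nt and 9 of 49 (18.4%) 24-nt identifiers with 1 to 9 loci. Over all known identifiers with 1 to 9 loci it was 25 of 266 (9.4%), and with no limit 38 of 285 (13.3%). Of those 6 members, 5 belonged to the paired group and URS0000153828 did not.

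The closest was a predicted locus at 27238412 to 27238477 on chromosome 6, which lay 128 bases from the unpaired locus of URS000048AE79. On chromosome 9 a predicted locus at 13531644 to 13531708 lay 739 bases from URS00001FBCD0, and on chromosome 4 one at 6535478 to 6535548 lay 805 bases from URS00003B4377. On chromosome 5 the predicted locus at 18662419 to 18662503 was farther, 5910 bases from URS00001FBCD0. In the 3 pairs on chromosomes 4, 5 and 9 the predicted locus lay on the side of the upstream miRNA, within 10 kb of both miRNAs. URS00002E6AE7 and URS0000470D1F were thus counted only through a predicted locus that their upstream partner shared. URS0000153828 had a predicted locus 4925 bases from its locus on chromosome 9.

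The 20-nt identifier URS000020F5A7 was the partner that recurred most often. It has 10 loci and stands outside the member set both by its length and by its number of loci. At 5 of the 10 it had a member within 200 bases, and in all 5 pairs the member was the downstream miRNA. Those members were URS000000CCDD, URS000019CB0D and URS0000570BF8.

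URS000000CCDD had 2 loci, both behind a copy of URS000020F5A7. The gap was 51 bases on chromosome 1, with the member at 4666074 to 4666095, and 70 bases on chromosome 9, with the member at 15065346 to 15065367. On chromosome 1 a second copy of URS000020F5A7 followed 380 bases after the first, from start to start. It was followed after 47 bases by the 21-nt URS0000105F8D, so that 4 loci on the plus strand alternated between the 20-nt miRNA and a longer one. URS0000570BF8, with 1 locus, lay at 26554902 to 26554923 on chromosome 6, 46 bases behind URS000020F5A7.

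URS000019CB0D had 3 loci, each with an upstream neighbour. On chromosome 8 its copies began at 21478393 and 21491395, both on the plus strand, and each stood 140 bases behind a copy of URS000020F5A7. The copies of both miRNAs were therefore offset by the same 13002 bases. Its locus on chromosome 5, at 5230735 to 5230756, had another partner, the 21-nt URS00001E3E29, at a gap of 95 bases. The same 22-nt sequence thus stood behind 2 different identifiers.

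A compact group on chromosome 8 held a pair of members with a 21-nt miRNA between them. URS000018983F at 26803136 to 26803157 and URS00003C0627 at 26803250 to 26803271 lay on the plus strand with 92 bases between them. The 21-nt URS00004D7772, which has 6 loci, lay between them, with 1 base between it and URS000018983F and 70 bases between it and URS00003C0627. Consecutive loci at most 10 kb apart made up a run, and this one reached 26817518 with 6 loci of 3 identifiers, the rest being further copies of URS00004D7772.

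The other pairs each joined 1 member with 1 neighbour. As the downstream miRNA, URS000008AA1A on chromosome 1 lay 32 bases behind URS00000886ED, and URS00002A26D6 on chromosome 5 lay 34 bases behind URS00004F869A. URS00002E3FC8 on chromosome 7 followed URS00004B5529 after 49 bases, and URS00004D99DE on chromosome 12 followed URS000013A25F after 75 bases. As the upstream miRNA, URS00002CF3A5 on chromosome 11 preceded URS00002A5632 by 37 bases and URS00004754D8 on chromosome 1 preceded URS00005D4C3E by 54 bases. All but URS000008AA1A had a single locus, and that member had no such neighbour at its other 3.

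**Figure D3:**
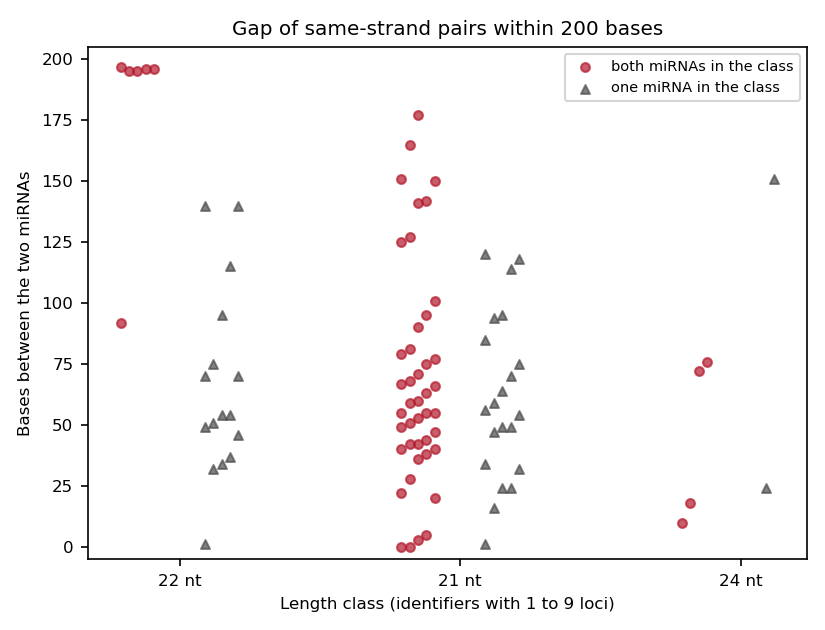
Bases between the miRNAs of each same-strand pair within 200 bases (vertical axis) for identifiers of 22, 21 and 24 nt with 1 to 9 loci; circles are pairs with both miRNAs in the class and triangles pairs with 1 in it, so a mixed pair can appear under 2 classes. The 5 circles at 195 to 197 bases are all in the 22-nt column. With them included, the median there is 72.5 bases, against 57.5 at 21 nt and 48 at 24 nt.

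Across the members the 22 pairs had a median gap of 72.5 bases, with a range from 1 to 197. These include the 5 pairs at least 195 bases apart, which were picked out after the distances had been seen. The 16 pairs of a member with a non-member had a median gap of 54 bases. The 62 pairs elsewhere in the annotation that held no member had a median gap of 59 bases and a range from 0 to 177. In 6 of the 84 pairs of the annotation both miRNAs were 22 nt long, and all 6 joined 2 members.

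An overlap with another known miRNA on the same strand was found for 2 of the 36 members (5.56%), near the share over all known identifiers, 14 of 285 (4.91%). On chromosome 4, the member URS000039C9E6 lay on the minus strand at 34931960 to 34931981 and shared 21 bases with the 21-nt URS00004A46D8 at 34931961 to 34931981. Their 5′ ends coincided, so the 22-nt miRNA was the longer by 1 base at its 3′ end. On chromosome 2, URS000006A46E lay on the minus strand at 35636693 to 35636714 and shared 20 bases with the 21-nt URS0000440877 at 35636692 to 35636712. There the 5′ ends lay 2 bases apart, and a miRNA's seed, the stretch near the 5′ end that weighs most in target pairing, is then shifted. Both members also had a downstream neighbour, at 54 bases for URS000039C9E6 (URS00000FFF13) and at 115 bases for URS000006A46E (the 23-nt URS0000530794). How reads were divided between overlapping identifiers is not stated in the labels or file headers.

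Members with several loci differed in how far their copies lay apart. URS0000153828 had 7 loci on 6 chromosomes, and its copies on chromosome 1 lay 22327155 bases apart. URS00004AF22D had 6 loci on 5 chromosomes and URS000022C65B had 3 loci on 3, while URS00005C1EF7 had 6 loci on 3 chromosomes. None of these 4 members had another known miRNA within 200 bases on the same strand. URS0000153828 came within 7594 bases of one, the 22-nt URS0000258DCD, on chromosome 8 and on the opposite strand.

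For 2 of the 36 members, copies of the same miRNA lay close together on opposite strands. URS00005C1EF7 had copies on chromosome 1 at 22375048 to 22375069 on the plus strand and at 22375087 to 22375108 on the minus strand, facing each other across 17 bases. Its other 4 loci lay on chromosomes 1, 2 and 12. URS000055FE9E had both of its loci on chromosome 9, at 3904488 to 3904509 on the minus strand and at 3904698 to 3904719 on the plus strand, turned away from each other with 188 bases between them. Of all 285 known identifiers, 5 had such opposite copies within 200 bases. With 1 to 9 loci it was 1 of 152 at 21 nt and 0 of 49 at 24 nt.

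Of the 72 member loci, 3 lay outside chromosomes 1 to 12. URS00003917D4 had 2 of its 4 loci on the mitochondrial sequence, at 162774 to 162795 and 485875 to 485896. Its others were on chromosome 4, at 32890187 to 32890208, and on chromosome 12, at 13389181 to 13389202. At all 4 the nearest known miRNA was the same identifier, URS00003A7899, one of the 22-nt miRNAs left out for their copy number. The distances were 5225 and 28377 bases on the mitochondrial sequence, 38669 bases on chromosome 4 and 8409 bases on chromosome 12. URS00003A7899 has 30 loci, 14 of them on the mitochondrial sequence, 12 on chromosome 12 and 1 on chromosome 4. These numbers were not set against the length of the sequences. URS000048B889 had 1 locus on chromosome 1 and 1 on a sequence outside the chromosomes and organelles.

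In the wider window of 10 kb, on either strand, 25 of the 36 members (69.4%) lay in a run with another known locus. The share was 103 of 152 (67.8%) for 21-nt and 22 of 49 (44.9%) for 24-nt identifiers with 1 to 9 loci. Over all 285 known identifiers it was 185 (64.9%), near the members' share. For URS00005C1EF7 and URS000055FE9E the run held only their own copies on opposite strands. The runs that held a member numbered 26, of which 18 had 2 loci and 8 had 3 or more. On chromosome 3 the single-locus URS000012350C and a copy of URS000056DE36 made up a run of their own, 8441 bases apart on opposite strands. On chromosome 12, URS00004D99DE lay in a run of 5 loci of 5 identifiers, all on the plus strand, from 25473075 to 25480729. The 11 members outside any run were 8 with a single locus and 3 with several. Seen by locus, 23 of the 72 had their nearest known miRNA more than 100000 bases away. This was counted for member loci only, so whether it is usual in the annotation was not tested.

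**Figure D4:**
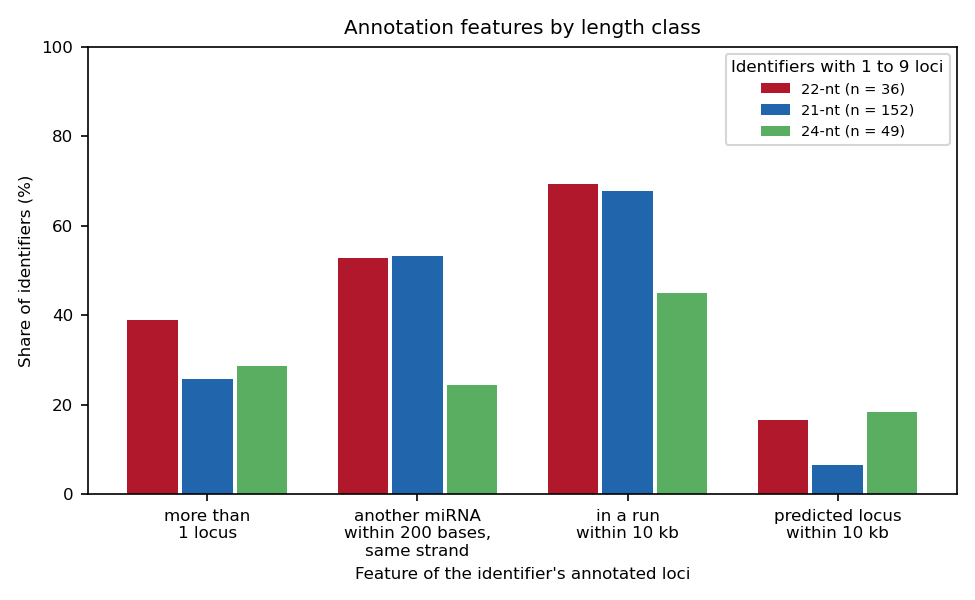
Share of identifiers (vertical axis, %) with each feature of their annotated loci, for 22-nt (n = 36), 21-nt (n = 152) and 24-nt (n = 49) identifiers with 1 to 9 loci. Bars are shares of a fixed list and have no replicate error. The 22-nt and 21-nt bars are close for neighbours within 200 bases (52.8% and 53.3%, but 36.1% and 46.7% within 100 bases) and runs (69.4% and 67.8%).

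The members lay on all 12 chromosomes. Chromosome 1 held the most of their loci, 12, followed by chromosome 8 with 9 and chromosome 2 with 8. Chromosomes 7 and 11 held 2 each. Of all known loci, chromosome 1 also held the most, 134. Chromosomes 8, 2, 7 and 11 held 114, 119, 85 and 87 of them. These numbers were not set against chromosome length. Chromosomes 9 and 10, with 6 and 3 member loci, held no single-locus member.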

How the data were processed

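Small RNA was sequenced from 8 rice panicle libraries. The submitters' processing notes name Bowtie, Subread, fastp and bedtools, with no versions, and the name of the build is not given in the labels or headers. The files deposited by the authors are 1 annotation of miRNA alignments and 2 tables, of known miRNAs and of predicted loci. The 16 per-library columns of the tables match no sample label. None of their values was used, so abundance and depth per library are not given. Only row names and positions were analysed. Lengths are summed aligned exons, the largest per identifier. Gaps count the bases between nearest ends. Loci are facts of 1 annotation with no replicates, and 1 identifier can have several loci, so counts and shares are given without tests. The counting of neighbours was tested on simulated positions. Named identifiers are members with several loci, a neighbour within 200 bases, a run within 10 kb, an overlap, a predicted locus nearby or a locus off chromosomes 1 to 12, with their neighbours; members and rules were chosen with earlier results of these data known. Python 3.11.15 and Matplotlib 3.10.9 were used.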

Additional observations from a re-analysis of the deposited data

How the results depend on the processing

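The distance allowed moved the counts most. No member overlapped a predicted locus, 1 member had one within 200 bases and 6 had one within 10 kb. The number of members stayed at 36 with the most common aligned length and with loci on chromosomes 1 to 12 alone, and was 33 with a limit of 4 loci. On chromosomes 1 to 12 alone 13 members had more than 1 locus, against 14. Members with a same-strand neighbour numbered 19 within 200 and within 500 bases, 13 within 100 bases, and 17 when only neighbours with 1 to 9 loci counted. The 6 members lost at 100 bases are those of the 5 pairs 195 to 197 bases apart, which lie just inside the 200-base window. At 100 bases, a setting for the other classes chosen after seeing the data, 71 in place of 81 identifiers of 21 nt and 11 in place of 12 of 24 nt had a neighbour. The overlap count stayed at 2 with 15 shared bases required and on either strand. Runs held 21 members at 1 kb, 25 at 10 kb and 29 at 50 kb. No paired analysis was possible because no column of the count tables could be tied to a genotype or nitrogen level. Leaving out libraries was not possible either, since no library enters a value.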
